A study of Mus musculus with 8 samples.

Results

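Genes of DNA replication and mitosis were read out in cells sorted as astrocytes from the somatosensory cortex of young mice, with and without the Hedgehog receptor gene Ptch1. The 38 genes were taken by symbol from the deposited table of raw gene counts: 17 act in S phase or at entry into it, and 21 act from late S phase through cell division. All 38 had at least 1 read, among 20578 genes with a count. Of the 38, 17 had enough counts to be tested in a fit over 10954 genes, and 21 lay below the count filter and were described by their pooled counts. The 4 control libraries, labelled WT, came from mice with Glast-CreERT2 and the reporter Ai14. The 4 mutant libraries, labelled Ptch1cKO, came from mice with Glast-CreERT2, Ai14 and 2 floxed copies of Ptch1 (Ptch1fl/fl). Both groups thus carried the Cre driver and the reporter and received tamoxifen on postnatal days 12 to 14, and cells with tdTomato fluorescence were collected by sorting at postnatal days 23 to 25. Cre under the Glast promoter marks cells that expressed this glutamate transporter gene when tamoxifen was given, together with their later progeny, so other Glast-expressing cells and their offspring can also carry tdTomato. Nothing in the labels ties a library to its own animal. The p-values therefore reflect variation among these libraries only, which may be technical.

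A cell that prepares to divide first licenses its replication origins, copies its DNA in S phase, and then separates the copies in mitosis. E2F transcription factors switch on the S phase genes, and a later programme switches on the mitotic genes. Both sets are low in cells at rest, so their transcripts are widely used as a readout of how many cells in a sample are dividing. Sonic hedgehog is a mitogen for granule neuron precursors of the cerebellum, where loss of Ptch1 drives proliferation. Most astrocytes of the cortex have left the cell cycle by the fourth postnatal week.

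Total counts were 4061274 to 7206462 per library. The targeted gene Ptch1 had a mean of 357 CPM (reads relative to library size, scaled for library composition) in WT and 223 CPM in Ptch1cKO, with overlapping ranges of 227 to 491 and 168 to 258 CPM. This gave a log2 difference of -0.67 with an SE of 0.22, which did not pass edgeR's test after Benjamini-Hochberg adjustment (adjusted p = 0.349). Counts cover the whole gene, so a transcript without the floxed part can still be counted. Summed over 10 astrocyte markers, the authors' deposited TPM (values that also scale for gene length) was 9703 to 17263. The sums were 3777 to 6027 for 6 neuronal markers and 7081 to 14219 for 6 oligodendrocyte markers. Astrocyte transcripts were thus abundant, but so were those of other cell types. In WT replicate 2 the oligodendrocyte sum (14219 TPM) was above the astrocyte sum (11972 TPM). Xist was under 10 counts in 6 libraries and higher in WT replicates 2 and 3. WT replicate 1 stood apart in the genes described here. Of the 38 genes, 27 (71.1%) had their highest CPM in that library, whereas 11.4% of the 10954 tested genes did.

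The replication and mitosis genes were present at low level. Averaged over the 8 libraries, the most abundant per length were Rrm1 at 18.1 TPM, Pcna at 15.1 TPM, Ube2c at 14.9 TPM and Top2a at 14.4 TPM. Rrm1 encodes the large subunit of ribonucleotide reductase, which makes the building blocks of DNA, and Pcna the sliding clamp of the DNA polymerases. Both also serve DNA repair outside S phase. The least abundant were Cdc6 at 0.192 TPM and Bub1 at 0.207 TPM. The median over the 38 genes was 1.18 TPM, beside 14.6 TPM over the tested genes, and 3 of the 38 lay above that level. The libraries were exome-captured, and the part of capture in this order was not tested.

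No replication or mitosis gene passed the test between genotypes. By edgeR's quasi-likelihood test with Benjamini-Hochberg adjustment over all genes, 0 of 17 had an adjusted p under 0.05, beside 0.1% of all genes tested (11 of 10954). DESeq2 also called 0 of them, beside 79 of 12978 genes. An unadjusted p under 0.05 was found for 2 of the 17, Rrm2 and Hells, both lower in Ptch1cKO, beside 9.34% of all genes in either direction and 4.54% in that direction. None of the 17 was higher at an unadjusted p under 0.05, beside 4.8% of all genes. In 0 of the 17 were the 4 libraries of a group all above the 4 of the other, beside 2.5% of all genes with Ptch1cKO lower and 2.52% with it higher. The log2 fold change was negative in 15 of the 17, with a median of -0.84, beside 50.4% negative and a median of -0.0019 over all genes. Because 14 of the 17 genes were highest in WT replicate 1, neither this number nor the median supports a fall of the group. Without WT replicate 1, 9 of the 17 were negative and the median was -0.04, with 1 of 17 at an unadjusted p under 0.05 (9.27% of all genes in that fit). With WT replicates 1 and 4 as the only controls (the 6 libraries under 10 Xist counts), 15 of the 17 were negative, the median was -1.29 and 7 had an unadjusted p under 0.05 (7.91% of all genes). Without WT replicate 3, 14 were negative, the median was -1.04 and 6 had an unadjusted p under 0.05 (9.54% of all genes). Both this fit and that of the 6 libraries keep WT replicate 1 among fewer controls and so give it more weight. Their numbers are therefore no separate sign of a fall. By edgeR with Benjamini-Hochberg adjustment, 0 of the 17 passed in each of these 3 fits. Over all genes, 2 of 11174 passed without WT replicate 1, 3 of 11498 in the 6 libraries and 1 of 11188 without WT replicate 3.

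**Figure D1:**
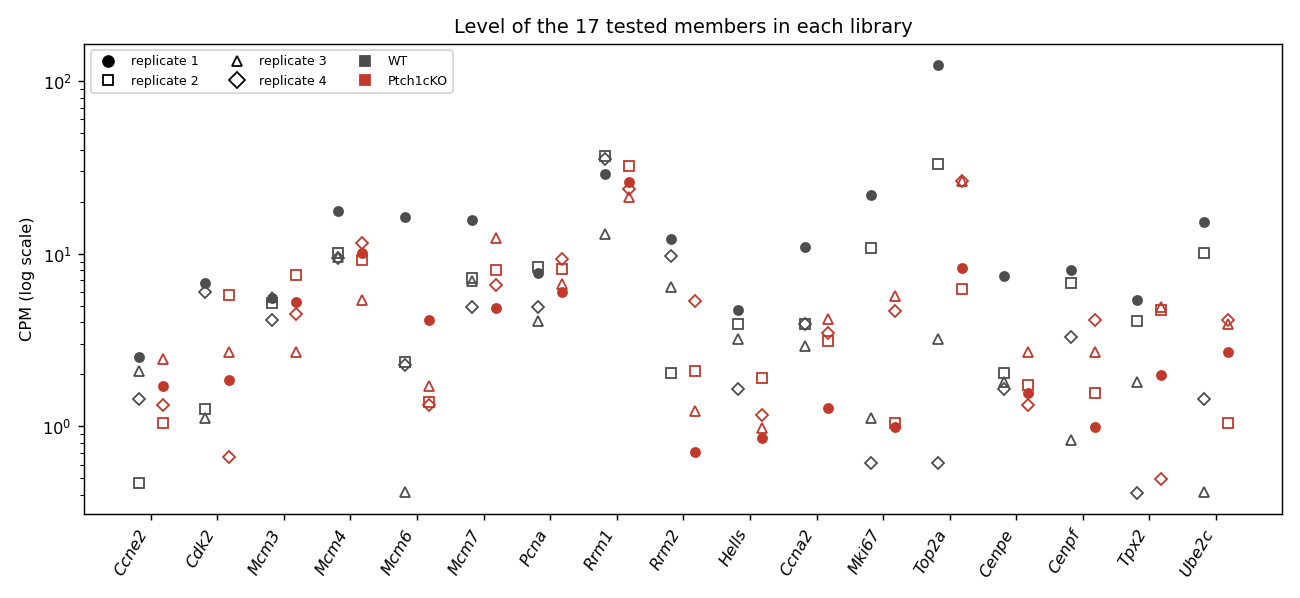
CPM on a log axis of the 17 tested genes in each library, with WT in grey, Ptch1cKO in red and a symbol for each replicate number. WT replicate 1 (filled grey circle) is the highest of the 8 libraries in 14 of the 17 genes, and the ranges of both genotypes overlap in every gene shown.

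Among the genes that drive entry into S phase, levels varied as much within as between genotypes. Cdk2, the kinase that cyclins E and A activate, had 6.73, 1.26, 1.12 and 5.97 CPM in WT replicates 1 to 4 and 1.85, 5.73, 2.71 and 0.661 CPM in Ptch1cKO replicates 1 to 4. High and low libraries thus occurred in both groups, and the log2 fold change was -0.45 (SE 0.67). Ccne2, a cyclin E, had a log2 fold change of -0.03 (SE 0.53). Its relative Ccne1 reached 19 counts over the WT libraries and 9 over the mutants, and the transcription factor E2f1, which turns on many S phase genes, had 31 and 19. Exons of Cdk2 and Ccne2 overlap genes on the opposite strand (Pmel and Ints8), as do those of Mcm7, Ccna2, Ube2c, Plk1, Cdca8, Nusap1, Prc1 and Cdc20. Since no source used here states whether counting was strand-aware, reads of these pairs may be mixed.

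Origin licensing loads the Mcm2 to Mcm7 helicase onto DNA with the help of Cdc6, and Gmnn blocks reloading. Of these 8 genes 4 were tested, and their log2 fold changes were -0.03 (SE 0.35) for Mcm3, -0.35 (SE 0.30) for Mcm4, -1.28 (SE 0.82) for Mcm6 and -0.16 (SE 0.38) for Mcm7. The large value of Mcm6 came from a single library. Mcm6 had 16.3, 2.36, 0.419 and 2.26 CPM in WT replicates 1 to 4 and 4.12, 1.39, 1.72 and 1.32 CPM in Ptch1cKO replicates 1 to 4. Without WT replicate 1 its log2 fold change was 0.40 (SE 0.64). Mcm5 showed the same distribution at lower depth, with 32, 1, 1 and 3 counts in WT and 7, 0, 2 and 1 counts in Ptch1cKO. Mcm3, a subunit of the same hexamer, had 5.55, 5.19, 5.59 and 4.12 CPM in WT and 5.25, 7.47, 2.71 and 4.46 CPM in Ptch1cKO, and stood no higher in WT replicate 1 than in WT replicate 3. Mcm3 and Mcm6 thus differed in which libraries were high.

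The genes of DNA synthesis and nucleotide supply held the members with the smallest p-values. Rrm2, the small subunit of ribonucleotide reductase whose level follows S phase, had 12.1, 2.04, 6.43 and 9.68 CPM in WT replicates 1 to 4 and 0.710, 2.09, 1.23 and 5.29 CPM in Ptch1cKO replicates 1 to 4. WT replicate 2 lay within the range of Ptch1cKO and the other WT libraries lay above it. On average WT had 7.57 ± 4.36 CPM and the mutants 2.33 ± 2.05 CPM (SD over 4 libraries each). The log2 fold change was -1.67 (SE 0.59), with an unadjusted p of 0.0134 by edgeR and a Benjamini-Hochberg adjusted p = 0.404. Rrm2 was called when genes with low counts were kept in the fit (adjusted p = 0.0125), and over all 14 alternatives the adjusted p was 0.0125 to 0.593 and the log2 fold change -2.48 to -1.35. Rrm2 lies on chromosome 12 of mm10 at 24708241 to 24714146, plus strand.

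Hells, a chromatin remodeller needed for DNA methylation and abundant in dividing cells, had 4.71, 3.93, 3.21 and 1.65 CPM in WT replicates 1 to 4. In Ptch1cKO replicates 1 to 4 it had 0.852, 1.91, 0.984 and 1.16 CPM, so that WT replicate 4 alone fell inside the mutant range. Mean levels were 3.38 ± 1.30 CPM and 1.23 ± 0.474 CPM (SD over 4 libraries each). The log2 fold change was -1.45 (SE 0.47), with an unadjusted p of 0.00728 by edgeR and a Benjamini-Hochberg adjusted p = 0.349. The value without WT replicate 1 was -1.26 (SE 0.52), and the adjusted p over the alternatives was 0.264 to 0.669. Hells (chromosome 19, 38930915 to 38971051, plus strand) thus kept its direction without the library that stood apart.

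By contrast, Rrm1 and Pcna differed little. Rrm1 had 28.9, 36.6, 12.999 and 35.2 CPM in WT replicates 1 to 4 and 25.8, 32.0, 21.4 and 23.8 CPM in Ptch1cKO replicates 1 to 4, with a log2 fold change of -0.14 (SE 0.28). All 4 mutant libraries lay within the range of WT. Pcna had a log2 fold change of 0.26 (SE 0.32). Tyms, which makes thymidylate, was counted 43, 17, 11 and 5 times in WT replicates 1 to 4 and 5, 3, 9 and 7 times in the mutants. The pooled counts of Tyms were 76 and 24, and the ratio of Ptch1cKO to WT was 0.335 (95% exact interval 0.203 to 0.536). These intervals cover counting error only and leave out the spread between libraries, which is wide here.

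In Top2a, Mki67 and Ube2c the highest and the lowest library were both WT. Top2a, the topoisomerase that untangles sister chromatids, had 123, 33.0, 3.21 and 0.618 CPM in WT replicates 1 to 4, from 731, 210, 23 and 3 counts. In Ptch1cKO replicates 1 to 4 it had 8.24, 6.26, 26.3 and 26.3 CPM, from 58, 36, 107 and 159 counts. All 4 mutant libraries lay between WT replicates 2 and 3. Its log2 fold change was -1.27 (SE 1.36) over all libraries and 0.42 (SE 1.18) without WT replicate 1. Against WT replicates 3 and 4 alone, a comparison chosen after the counts were seen, it was 3.02 (SE 0.77; edgeR, Benjamini-Hochberg adjusted p = 0.266), so the choice of control libraries set its sign. Top2a (chromosome 11, 98992943 to 99024189, minus strand) made up 34.4% of all counts of the 38 genes in WT replicate 1 and 0.598% in WT replicate 4.

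Mki67, the proliferation antigen Ki-67 that coats mitotic chromosomes, followed a like order. It had 21.9, 10.8, 1.12 and 0.618 CPM in WT replicates 1 to 4 and 0.994, 1.04, 5.66 and 4.63 CPM in Ptch1cKO replicates 1 to 4. WT replicates 1 and 2 were above every mutant library, and WT replicate 4 was below every one. Ube2c, the ubiquitin-conjugating enzyme of the anaphase-promoting complex, had 15.3, 10.1, 0.419 and 1.44 CPM in WT and 2.70, 1.04, 3.94 and 4.13 CPM in Ptch1cKO. The log2 fold changes were -1.53 (SE 1.01) for Mki67 and -1.22 (SE 0.81) for Ube2c. Against WT replicates 3 and 4 alone they were 1.73 (SE 0.84) and 1.72 (SE 0.76). In all 3 genes Ptch1cKO replicates 3 and 4 were above Ptch1cKO replicates 1 and 2.

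The remaining tested mitotic genes also had their highest level in WT replicate 1. Ccna2, the cyclin of S phase and early mitosis, had 10.9, 3.93, 2.94 and 3.91 CPM in WT replicates 1 to 4 and 1.28, 3.13, 4.18 and 3.47 CPM in Ptch1cKO replicates 1 to 4. Without WT replicate 1 its log2 fold change went from -0.87 (SE 0.48) to -0.27 (SE 0.46). The kinetochore motor Cenpe went from -0.84 (SE 0.54) to -0.04 (SE 0.49), and the kinetochore protein Cenpf from -1.02 (SE 0.60) to -0.63 (SE 0.64). Tpx2, which activates Aurora A on the spindle, had 0.00 (SE 0.75) and 0.46 (SE 0.73). None of these passed by edgeR in either fit.

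**Figure D2:**
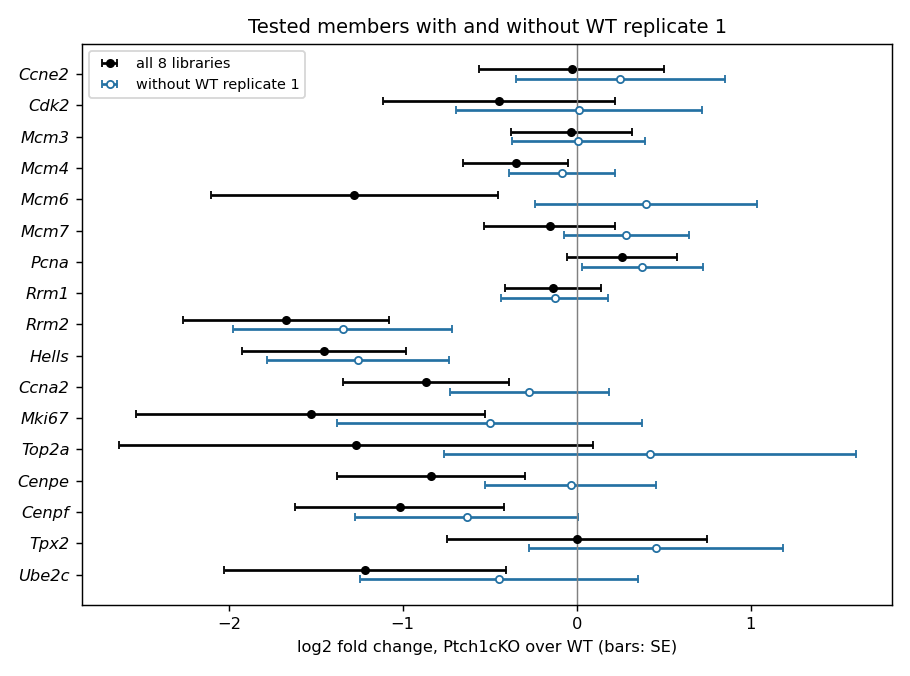
Log2 fold change of Ptch1cKO over WT, with its SE, for the 17 tested genes over all 8 libraries (filled) and without WT replicate 1 (open). Mcm6 and Top2a cross 0, from -1.28 to 0.40 and from -1.27 to 0.42, while Rrm2 and Hells stay below it, at -1.35 and -1.26 without that library.

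The 21 genes below the filter held 16 to 100 counts each over the 8 libraries and at most 43 in any library. The pooled ratio of Ptch1cKO to WT was below 1 in 18 of the 21 and in 12 without WT replicate 1. The 95% counting interval lay below 1 for 6 genes and above 1 for 1 gene. Without WT replicate 1 it lay below 1 for 2 genes and above 1 for 2. Leaving out the library in which most of these genes were highest raises their ratios by construction. Without the count filter, edgeR gave 0 of the 21 an adjusted p under 0.05, with 3 (Mcm5, Tyms and Ect2) at an unadjusted p under 0.05 and a smallest adjusted p of 0.284 (Benjamini-Hochberg). Over the 20578 genes of that fit, 0.967% had an adjusted p and 9.79% an unadjusted p under 0.05.

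Ect2, which starts the furrow of cytokinesis, was among the genes low in Ptch1cKO in both sets of libraries. WT replicates 1 to 4 held 27, 13, 12 and 7 counts and the mutants 4, 2, 5 and 9, with a ratio of 0.360 (95% exact interval 0.205 to 0.606) and of 0.501 (0.272 to 0.904) without WT replicate 1. Birc5, the survivin subunit of the chromosomal passenger complex, was counted 10, 5, 7 and 1 times in WT and 3, 1, 0 and 1 times in the mutants. Its ratio was 0.231 (95% exact interval 0.0685 to 0.621), and 0.308 (0.0861 to 0.922) without WT replicate 1. The other genes whose interval lay below 1 over all libraries were Mcm5, Tyms, Ccnb2 and Cdca8, and without WT replicate 1 each of these intervals covered 1.

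A few members ran the other way. Bub1b, a kinase-like protein of the spindle checkpoint, was counted 10, 2, 1 and 2 times in WT and 8, 9, 9 and 4 times in the mutants. The mutants lay above WT replicates 2 to 4 in counts, and the ratio was 2.12 (95% exact interval 1.11 to 4.25), or 4.81 (1.85 to 15.9) without WT replicate 1. Prc1, which bundles microtubules of the central spindle, was counted 25, 9, 5 and 2 times in WT and 19, 9, 6 and 24 times in the mutants, with a ratio of 1.502 (95% exact interval 0.989 to 2.30), or 2.91 (1.65 to 5.42) without WT replicate 1. Gmnn had 16 counts over all WT libraries and 18 over the mutants. By edgeR without the count filter, the log2 fold changes were 1.09 (SE 0.78) for Bub1b and 0.54 (SE 0.55) for Prc1, with Benjamini-Hochberg adjusted p = 0.645 and 0.713.

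The cyclins and kinases that trigger mitosis were at the limit of detection. Cdk1, the kinase of mitotic entry, had 13 counts over all WT libraries and 7 over the mutants, and its partners Ccnb1 and Ccnb2 had 19 and 15, and 25 and 7. Plk1 had 27 and 16, Aurka 15 and 7, Aurkb 12 and 10, and Cdca8, a passenger subunit beside Aurkb, 17 and 5. The checkpoint kinase Bub1 had 12 and 4, the anaphase activator Cdc20 14 and 12, and the spindle protein Nusap1 15 and 13. Of the licensing genes, Mcm2 had 42 and 31 pooled counts and Cdc6 12 and 4. Of the 15 pooled WT counts of Nusap1, 80.0% came from WT replicate 1, as did 68.4% of those of Ccnb1 and 70.6% of those of Cdca8. At this depth differences in these genes were not detectable beyond counting error and the spread between libraries, except that the counting intervals of Ccnb2 and Cdca8 lay below 1 as given above.

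**Figure D3:**
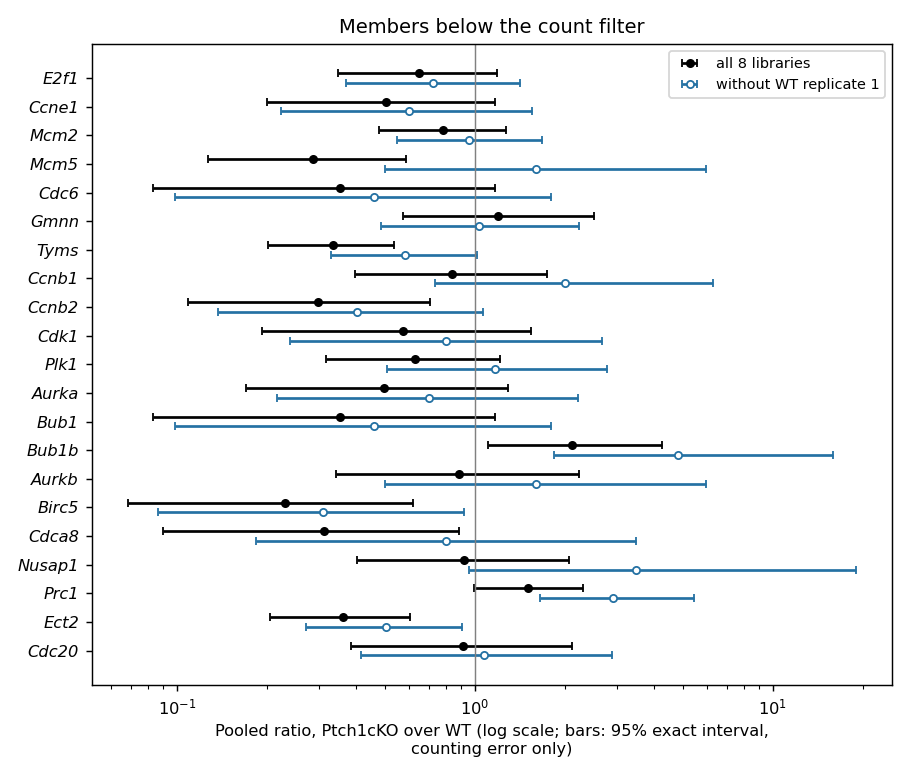
Pooled ratio of Ptch1cKO to WT on a log axis with 95% exact intervals (counting error only) for the 21 genes below the count filter, over all 8 libraries (filled) and without WT replicate 1 (open). Ect2 and Birc5 stay below 1 in both, Bub1b stays above 1 in both, and Mcm5 moves from 0.287 to 1.60.

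Summed over the 21 mitotic genes, levels were 220, 81.1, 18.3 and 18.3 CPM in WT replicates 1 to 4 and 24.9, 26.4, 62.2 and 56.2 CPM in Ptch1cKO replicates 1 to 4. All 4 mutant libraries lay above WT replicates 3 and 4 and below WT replicates 1 and 2. The order did not rest on Top2a alone, since without it the sums were 96.9, 48.1, 15.1 and 17.7 CPM in WT and 16.6, 20.2, 35.9 and 29.9 CPM in Ptch1cKO, with Ptch1cKO replicate 1 then between WT replicates 3 and 4. The 17 S phase genes spread less, at 137, 82.5, 60.8 and 85.0 CPM in WT and 65.6, 81.3, 63.7 and 71.1 CPM in Ptch1cKO. The number of cells in cycle and the level of these transcripts per cell cannot be told apart in such bulk libraries. In the column names of the deposited tables WT replicates 1 and 2 share a prefix, as do WT replicates 3 and 4 and Ptch1cKO replicates 1 and 2. Ptch1cKO replicates 3 and 4 each have a prefix of their own. The meaning of the prefix is unknown here, and it never spans genotypes, so the prefix and the genotype cannot be told apart. Within WT, the higher mitotic sums (220 and 81.1 CPM) shared a prefix and the lower sums (18.3 and 18.3 CPM) shared another. The fit with WT replicates 3 and 4 alone thus used controls of a single prefix. The part of the prefix was not tested.

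Markers of other cell types were set beside these sums. The 6 markers of neuroblasts, the migrating young neurons that leave the forebrain's germinal zone, were each highest in WT replicate 1, and 5 of the 6 passed the count filter. Their summed CPM was 182, 64.4, 32.6 and 33.6 in WT replicates 1 to 4 and 30.0 to 38.2 in Ptch1cKO. Dcx, a microtubule protein of migrating neurons, had 70.8, 26.6, 10.2 and 11.7 CPM in WT and 12.5, 14.1, 16.7 and 17.7 CPM in Ptch1cKO, and the interneuron lineage factor Dlx5 had 16.99, 4.56, 1.12 and 0.206 CPM in WT and 0.174 to 1.82 CPM in Ptch1cKO. WT replicates 1 and 2 were thus the highest libraries both in neuroblast markers and in mitotic genes. Among the mutants the orders differed, since Ptch1cKO replicate 3 had the highest mitotic sum (62.2 CPM) and the lowest neuroblast sum (30.0 CPM). The part of such cells in the results was not tested.

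Markers of other cell types that can divide in the young cortex were read in the same way. The 7 markers of oligodendrocyte precursors summed to 117, 184, 145 and 93.3 CPM in WT replicates 1 to 4 and 144, 130, 178 and 199.99 CPM in Ptch1cKO replicates 1 to 4, and 0 of the 7 were highest in WT replicate 1. The 9 microglial markers summed to 350, 420, 196 and 270 CPM in WT and 444, 230, 547 and 355 CPM in Ptch1cKO, and again 0 were highest in WT replicate 1. Within WT, replicates 1 and 2, which had the higher mitotic sums, also had the higher microglial sums. In Ptch1cKO this did not hold, since the microglial sum of replicate 1 (444 CPM) was above that of replicate 4 (355 CPM). Within Ptch1cKO, replicates 3 and 4, which had the higher mitotic sums, also had the higher sums of oligodendrocyte precursor markers. In WT this did not hold, since the precursor sum of replicate 1 (117 CPM) was below that of replicate 3 (145 CPM). Endothelial markers summed to at most 18.5 CPM and ependymal markers to at most 2.15 CPM, with the ependymal markers Ccdc153 and Tmem212 at 0 counts in every library but WT replicate 1 and Pifo at 0 in all 8. The part of these cell types was not tested either.

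**Figure D4:**
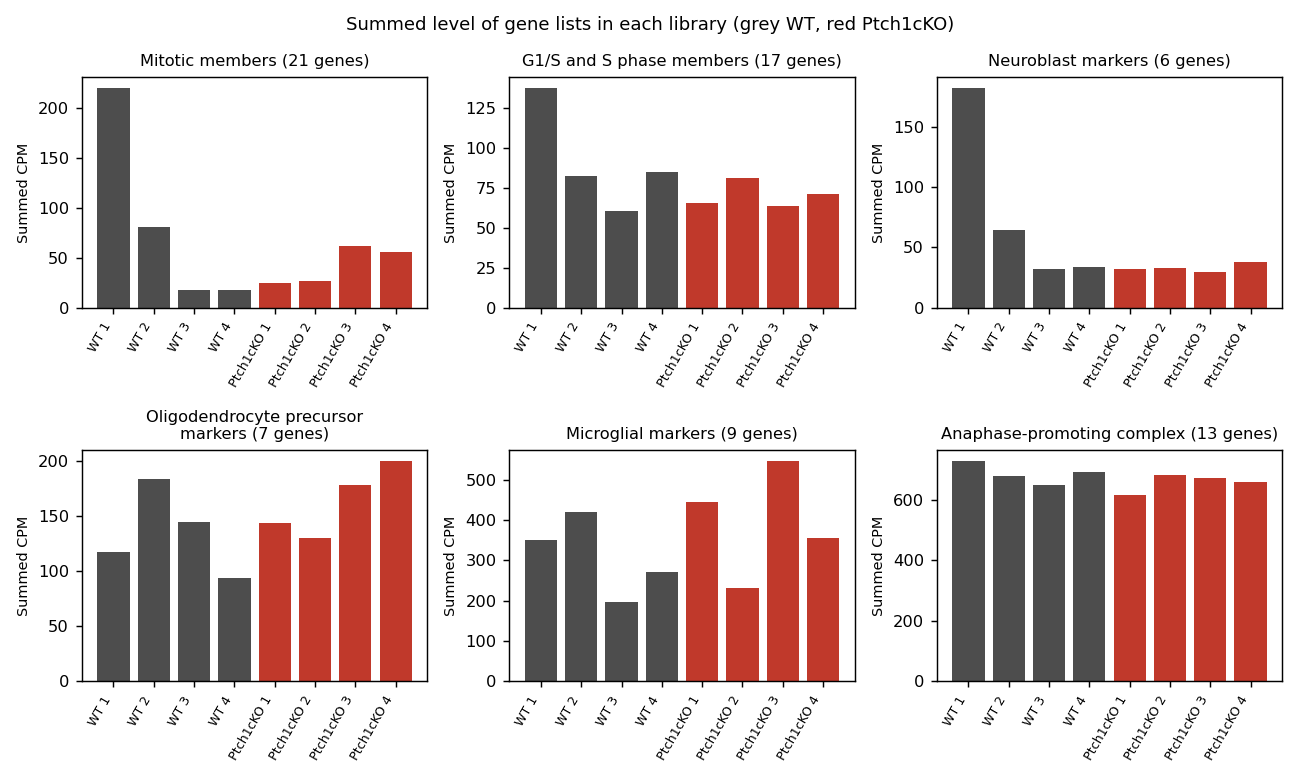
Summed CPM of 6 gene lists in each library, WT in grey and Ptch1cKO in red, each panel on its own linear axis from 0. Mitotic genes (220 CPM) and neuroblast markers (182 CPM) peak in WT replicate 1, whereas oligodendrocyte precursor markers peak in Ptch1cKO replicate 4 and the 13 genes of the anaphase-promoting complex stay between 617 and 729 CPM.

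Other genes of the same processes were read from lists outside the 38. Among 43 further genes of the replication machinery, 27 were tested, 13 had positive and 14 negative log2 fold changes, and 0 passed by edgeR, with 1 higher and 1 lower at an unadjusted p under 0.05, beside 4.8% and 4.54% of all genes. The median was -0.0013. The smallest p-values were those of Rpa1, which coats single-stranded DNA, at 0.58 (SE 0.21), of the helicase factor Cdc45 at -1.56 (SE 0.72), and of Dbf4, the activator of the origin kinase Cdc7, at -1.20 (SE 0.58). Of the 27 tested, 8 were highest in WT replicate 1.

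Among 39 further mitotic genes, 17 were tested, 6 were positive and 11 negative, and 0 passed, with a median of -0.14 and 1 gene lower at an unadjusted p under 0.05 (4.54% of all genes). That gene was Hmgb2, a chromatin protein of dividing cells, with 11.9, 4.87, 3.77 and 2.68 CPM in WT replicates 1 to 4 and 2.56 to 3.31 CPM in Ptch1cKO (log2 fold change -0.999, SE 0.44). The condensin subunits Smc4 and Ncapg had -0.50 (SE 0.25) and -0.94 (SE 0.47), and the 4 mutant libraries of Ncapg were all below the 4 WT libraries, which held for 1 of the 17 tested genes and for 2.5% of all genes. Of the 17 tested, 8 were highest in WT replicate 1, beside 11.4% of all tested genes.

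Cell cycle regulators were read in the same way. In the anaphase-promoting complex, which degrades mitotic cyclins, 13 of 13 genes were tested, 3 were positive and 10 negative, 0 passed and the median was -0.17. Their summed CPM ranged from 617 to 729 over the 8 libraries. The smallest p-values were those of Cdc16 at -0.41 (SE 0.21), Anapc13 at -0.29 (SE 0.17) and Cdc26 at -0.75 (SE 0.46), all subunits of the complex. Of 17 genes of the Rb, E2F and DREAM list, which together regulate cell cycle genes, 15 were tested. Of these, 7 were positive and 8 negative, and 0 passed, with a median of -0.02. Their summed CPM ranged from 663 to 807 over the 8 libraries. WT replicate 1 was the highest library for 4 of the 13 and 4 of the 15 tested genes, beside 11.4% of all tested genes. In both lists edgeR gave 0 genes an unadjusted p under 0.05, beside 9.34% of all genes tested. In 3 of the 15 the mutant libraries were all below the WT libraries, beside 2.5% of all genes, and these were also the 3 with the smallest p. Rbl1, the pocket protein p107, had a log2 fold change of -0.79 (SE 0.42), the MuvB subunit Lin52 had -0.50 (SE 0.30), and the E2F partner Tfdp2 had -0.21 (SE 0.13), at 114 to 131 CPM in WT and 102 to 112 CPM in Ptch1cKO.

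The promoters of 3 mitotic genes and of Rrm1 are shown. These 3 were chosen because, among the tested mitotic genes, they had the highest ratios of the highest to the lowest library in CPM. The ratio was 199 for Top2a, 36.5 for Ube2c and 35.4 for Mki67, whereas it was 2.82 for Rrm1. The S phase gene Mcm6, not shown, had a ratio of 38.9. Each sequence runs 5′ to 3′ from 250 bases before to 50 bases after the gene's start, from RefSeq on GRCm38.p6. Capitals mark matches, on either strand, to TTTGAA (the core of the cell cycle homology region, CHR, through which DREAM and MuvB complexes act), to CCAAT (bound by NF-Y) or to the E2F-type motifs TTTGGCGC, TTTCGCGC, TTCCCGCC and TTGGCGCC. The windows are chr11:99024140-99024439 (minus strand) for Top2a, chr7:135716330-135716629 (minus) for Mki67, chr2:164769679-164769978 (plus) for Ube2c and chr7:102441445-102441744 (plus) for Rrm1.
Top2a: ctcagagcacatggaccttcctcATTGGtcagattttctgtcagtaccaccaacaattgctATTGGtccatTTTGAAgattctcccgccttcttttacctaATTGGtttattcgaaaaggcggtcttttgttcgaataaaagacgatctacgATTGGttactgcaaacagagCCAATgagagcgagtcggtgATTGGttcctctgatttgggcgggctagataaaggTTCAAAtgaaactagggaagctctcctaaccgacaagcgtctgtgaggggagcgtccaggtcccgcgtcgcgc
Mki67: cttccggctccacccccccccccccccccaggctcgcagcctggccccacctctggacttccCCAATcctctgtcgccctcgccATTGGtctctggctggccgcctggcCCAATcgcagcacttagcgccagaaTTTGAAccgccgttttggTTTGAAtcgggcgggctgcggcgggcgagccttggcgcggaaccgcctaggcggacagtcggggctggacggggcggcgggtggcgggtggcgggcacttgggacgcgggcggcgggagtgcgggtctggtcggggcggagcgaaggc
Ube2c: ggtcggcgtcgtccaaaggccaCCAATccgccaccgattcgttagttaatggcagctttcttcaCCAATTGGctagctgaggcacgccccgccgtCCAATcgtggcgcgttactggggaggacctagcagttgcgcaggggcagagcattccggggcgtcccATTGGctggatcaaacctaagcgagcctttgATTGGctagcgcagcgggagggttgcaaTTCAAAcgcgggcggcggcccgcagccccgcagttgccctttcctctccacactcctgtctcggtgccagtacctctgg
Rrm1: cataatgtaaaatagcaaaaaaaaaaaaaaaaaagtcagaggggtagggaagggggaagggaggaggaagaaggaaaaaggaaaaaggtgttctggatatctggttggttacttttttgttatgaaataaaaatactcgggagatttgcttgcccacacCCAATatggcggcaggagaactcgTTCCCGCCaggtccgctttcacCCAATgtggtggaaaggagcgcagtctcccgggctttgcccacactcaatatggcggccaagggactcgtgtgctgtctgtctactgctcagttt

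Promoter windows were given for 32 of the 38 genes. Of 18 mitotic genes, 13 (72.2%) held TTTGAA on either strand and 16 (88.9%) held CCAAT, and all 13 with TTTGAA also held CCAAT. Over the promoters of 27025 genes the shares were 20.2% for TTTGAA, 41.1% for CCAAT and 7.97% for both. In the 13 mitotic genes a TTTGAA match began within 100 bases of the start site. Among the 14 S phase genes with a window, 1 (7.14%) held TTTGAA and 9 (64.3%) held CCAAT, the latter also above the share over all promoters. An E2F-type motif was held by 5 (35.7%) of the 14, beside 4.05% of all promoters and 2 (11.1%) of the mitotic ones. The window of Mcm6 held E2F-type motifs and no TTTGAA. A match describes the letters of a window and shows no binding.

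**Figure D5:**
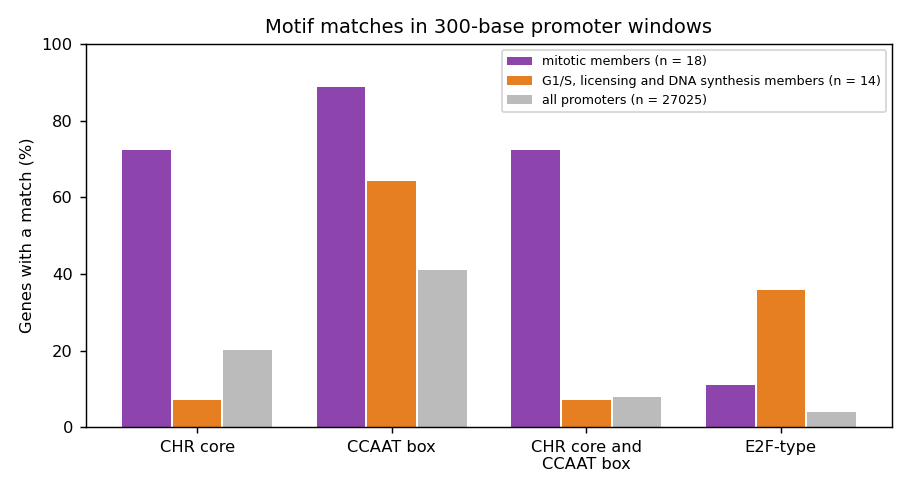
Percent of genes whose 300-base promoter window holds each motif on either strand, for 18 mitotic genes, 14 S phase genes and all 27025 genes with a window. TTTGAA together with CCAAT is found in 72.2% of the mitotic genes and 7.97% of all genes, and E2F-type motifs in 35.7% of the S phase genes and 4.05% of all genes.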

How the data were processed

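RNA of 8 libraries was measured after exome capture of cDNA, per the labels' protocols. Per the submitters' processing notes, the tools were bcl2fastq 2.18 and STAR 2.5, and the build was mm10. No source used here names the counting program, its annotation or its strand option. Whole-number counts per gene symbol were deposited in 24047 rows. The deposited TPM were computed by the authors and are used only for levels between genes.

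The tests used edgeR 4.0.16 under R 4.3.3. Low genes were removed by filterByExpr (minimum count 10), and the rest were scaled by TMM and tested with the quasi-likelihood F test, group as the only term, Benjamini-Hochberg adjusted over 10954 genes and called under 0.05. Self-tests on simulated counts were run. SE is the log2 fold change divided by the square root of F. DESeq2 1.42.0, RLE scaling, no filter, a replicate block, 6 libraries with under 10 Xist counts and single libraries left out were alternatives. Pooled ratios use TMM-scaled library sizes. No libraries agreed within sampling noise. Positions are from GENCODE M21 (GRCm38, the assembly of mm10). The 38 genes, the lists and the naming rule (all 38, the 3 smallest p of each other list, and marker genes where a result needed them) were chosen with earlier results of these data known. The fit with WT replicates 3 and 4 alone was added after the data were seen. Each library was to be left out in turn, and the fit without WT replicate 1 is given most space because most of the 38 genes were highest there. For those genes the direction of the shift without it was fixed in advance.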

Additional observations from a re-analysis of the deposited data

Results flagged for a closer look

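In 40 groups of 4 libraries (17 tested genes and 3 summed levels in each genotype), a library at the edge was checked for its distance from the nearest other library, relative to the whole range. 5 groups exceeded Dixon's 95% critical ratio, which chance exceeds in about 1 of 20 groups, and the genes are not independent. WT replicate 1 was the isolated library in 4 of them, with 17.7 CPM for Mcm4, 16.3 CPM for Mcm6, 10.9 CPM for Ccna2 and 7.40 CPM for Cenpe. Among the mutants, Ptch1cKO replicate 1 was isolated in Mcm6 at 4.12 CPM. Top2a, Mki67 and Ube2c did not exceed the ratio, because WT replicate 2 was also high.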

How the results depend on the processing

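The count of called genes among the 38 was 0 in the edgeR test and in every alternative but that without the count filter, where it was 1 (Rrm2). Over all genes, 11 were called, beside 79 with DESeq2, 199 without the count filter, 5 with the replicate block, 3 in the 6 libraries with under 10 Xist counts, 1 with WT replicates 3 and 4 alone, and 1 to 19 with single libraries left out. The titles give both genotypes the replicate numbers 1 to 4, but no label ties a number to a litter or day. In the column names, Ptch1cKO replicates 3 and 4 are numbered 4 and 5 instead. The replicate block and the check below use the numbers of the titles. Same-numbered libraries did not deviate together (r = 0.02, -0.17, -0.10 and -0.02 across genes), so the replicate block is an alternative only, and under it 14 of 17 genes were negative with a median of -0.39.

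Tpx2 was -0.0040 with RLE scaling and -0.0049 in the 6 libraries with under 10 Xist counts, where Mcm3 was 0.051, and Ccne2 was 0.075 with the replicate block. With WT replicates 3 and 4 alone the log2 fold changes were 0.045 for Mcm3, 0.77 for Mcm6, 0.38 for Mcm7, 0.12 for Rrm1, 1.73 for Mki67, 3.02 for Top2a, 0.055 for Cenpe, 0.23 for Cenpf and 1.72 for Ube2c. With single libraries left out the ranges were -0.34 to 0.25 for Ccne2, -1.12 to 0.015 for Cdk2, -0.28 to 0.16 for Mcm3, -1.85 to 0.40 for Mcm6, -0.43 to 0.28 for Mcm7, -0.38 to 0.014 for Rrm1, -1.67 to 0.42 for Top2a and -0.34 to 0.46 for Tpx2. WT replicate 1 was the library whose removal changed most signs (6 of 17). Depth limits the 21 genes below the filter.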
